A study of Mus musculus with 12 samples.

Results

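Between an engaged IL-1 receptor and NF-κB lies a short relay of kinases and adaptors, and the transcript levels of 10 of its genes are described here in mouse fibroblasts after IL-1β. They are the IRAK genes Irak1, Irak2, Irak3 and Irak4, the ubiquitin ligase gene Traf6, the TAK1 kinase gene Map3k7 with its adaptor gene Tab2, and the genes of the IKK complex, Chuk, Ikbkb and Ikbkg. They were chosen by symbol for their place in the pathway, and all 10 were found among the 27179 gene rows of the count tables by their Entrez IDs.

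In this relay the adaptor MyD88 gathers IRAK4 and the other IRAK kinases at the receptor, and IRAK1 and IRAK2 pass the signal to TRAF6. TRAF6 builds ubiquitin chains, which TAB2 binds so that TAK1 is held there and activated. TAK1 then activates the IKK complex, which marks the IκB proteins for destruction and so frees NF-κB. IRAK3, also called IRAK-M, is known as a brake on the IRAK step and is best known from monocytes and macrophages.

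The cells were NIH3T3, an immortalized mouse embryonic fibroblast line, of the genotype RelA-/- with a RelA-DsRed fusion, where RelA is an NF-κB subunit and DsRed a fluorescent protein. They were exposed to 0.2 ng/mL IL-1β for 2 h in microfluidic devices, in 3 samples. The series also labels 3 samples each for LPS, PAM and media, but each of the 9 tables under those labels was a copy of the third IL-1 table, and they were left out. The values below are therefore levels in IL-1-treated cells, without an untreated comparison, and no difference between treatments was tested. The labels do not say whether the line is 1 clone, what drives the fusion gene, or whether the samples came from separate cultures, so the spread between them may be technical.

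The IL-1 libraries held 17254518, 18091073 and 18578859 counts in replicates 1, 2 and 3. Levels are given as CPM, counts per 1e6 counts of the library, and as CPM per kb of exon where genes are compared with each other, since long transcripts yield more reads. Genes that reached 1 CPM in all 3 libraries count as detected. Of 12 fibroblast markers 10 were detected, with Fap at 0 counts and Lum below 1 CPM. None of 5 epithelial and none of 4 endothelial markers was detected. Of 8 macrophage markers 4 were detected, with a summed level of 15.0 to 21.7 CPM per library, namely Lyz2 at a mean of 9.69 CPM, Mrc1 at 4.29, Cd68 at 2.05 and Csf1r at 1.84 CPM. The other macrophage markers were near 0, with 3, 0 and 6 counts in replicates 1, 2 and 3 for Ptprc, 4, 0 and 0 for Adgre1, 2, 0 and 0 for Itgam and 2, 3 and 1 for Aif1. Which cells the detected macrophage markers came from, and whether this bears on the levels below, was not tested. Replicate 1 stood somewhat apart, with 45.7% of the 11224 detected genes at their highest there, against 27.1% in replicate 2 and 27.3% in replicate 3.

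Transcripts of 9 of the 10 genes were detected, and the exception was the brake, Irak3. For all rows of the table the share detected was 41.3%, and for protein-coding genes it was 51.1%. Chuk was the most abundant per kb, and the IRAK family reached from Irak1 in the upper part of the order to Irak3 near the limit that a count of 0 allows. In such bulk libraries, fewer cells with a transcript and less of it per cell cannot be told apart.

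**Figure D1:**
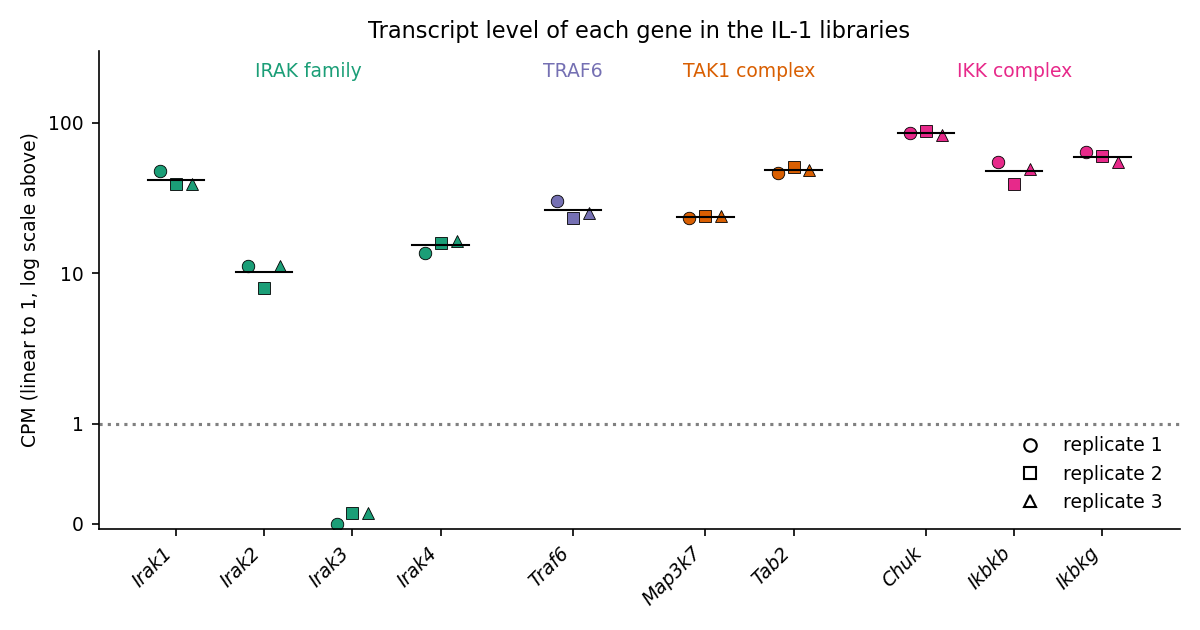
CPM (vertical axis, linear up to 1 and logarithmic above) of each gene in IL-1 replicates 1 (circles), 2 (squares) and 3 (triangles), coloured by step; horizontal bars are means of the 3 libraries and the dotted line marks 1 CPM. Chuk is highest in every library, and Irak3 is the only gene under the line, with 0, 2 and 2 counts.

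The IRAK kinases stand at the top of the relay, and Irak4 and Irak1 differ from Irak2 and Irak3 at the codon of the catalytic aspartate. The stretch that encodes the catalytic loop of the kinase domain is shown for all 4 genes because it holds that codon. Kinase activity was not measured. The sequences are those of GENCODE M21 coding transcripts, and capitals mark the codon at the place of the catalytic aspartate.
Irak1: catggaGACatcaagagttctaacgtgctt
Irak4: catagaGATattaaaagtgcaaatatctta
Irak2: cacagcAATgttaagagtgccaacgtcttg
Irak3: tgtggcAACgtttccagtgcaaacatactc
Irak1 and Irak4 carry an aspartate codon there (codons 340 and 311 of the coding sequence), and Irak2 and Irak3 an asparagine codon (codons 333 and 306). Irak3 alone also has tgt where the others have cat or cac, and tcc where they have aag or aaa. In all 4 genes the stretch crosses the junction of exons 8 and 9. It lies on the minus strand at chrX:74020523-74020959 for Irak1, on the plus strand at chr15:94558862-94561458 for Irak4, on the plus strand at chr6:113676680-113678659 for Irak2 and on the minus strand at chr10:120146617-120165109 for Irak3 (GRCm38, intron included). Of the 30 bases, Irak4 shared 19 with Irak1 and 21 with Irak2, and Irak3 shared 16 or 17 with each of the others. Outside the family, Irak4 shared 21 with Chuk and Irak1 shared 20 with Map3k7, while Irak3 shared 13 with each of Chuk, Ikbkb and Map3k7. The stretches were all located by the same pattern of residues, so the shared bases do not measure how similar the genes are. Counts per gene sum all transcript forms, of which the annotation lists 22 for Irak1 and 9 for Irak2.

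Irak1 (Entrez 16179, chromosome X, 74013914 to 74023921), whose product is released from the receptor complex to TRAF6, had 823, 704 and 722 counts in replicates 1, 2 and 3. This is 47.7, 38.9 and 38.9 CPM, with a mean of 41.8 ± 5.09 CPM (SD, n = 3, as for all means below). Replicate 1 was the high library, and the other libraries were nearly equal. Irak4 (Entrez 266632, chromosome 15, 94543613 to 94568317), the kinase that acts first in the complex, had 236, 288 and 305 counts, or 13.7, 15.9 and 16.4 CPM, and a mean of 15.3 ± 1.46 CPM. Here replicate 1 was the low library.

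Irak2 (Entrez 108960, chromosome 6, 113638467 to 113695026), which acts beside and after Irak1 and is known for sustaining the signal in mouse macrophages, had 193, 145 and 208 counts, or 11.2, 8.02 and 11.2 CPM. Its mean was 10.1 ± 1.83 CPM, with replicate 2 low and the others together. Irak3 (Entrez 73914, chromosome 10, 120141648 to 120202130) had 0, 2 and 2 counts. With 0 counts in replicate 1, a level of up to 0.174 CPM is allowed there. The 4 counts over all libraries correspond to 0.0742 CPM, with an exact Poisson 95% interval of 0.0202 to 0.190 CPM that covers counting error only. The exons of Irak3 share 192 bases with Tmbim4 on the opposite strand, which was at 109 ± 8.73 CPM, and without a stated strand setting the few Irak3 reads cannot be assigned with certainty.

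Within a library, Irak1 stood above Irak4 per kb in every case. The ratio of Irak1 to Irak4 was 3.71, 2.60 and 2.52 in replicates 1, 2 and 3, with a mean of 2.95 ± 0.666. Irak2 stayed below Irak4 in each library, at 0.931, 0.573 and 0.776 of its level, and at 0.251, 0.220 and 0.308 of that of Irak1. Irak3, with counts summed over the libraries, was at 0.659% of Irak4 per kb (exact 95% interval 0.179 to 1.69%) and at 0.228% of Irak1 (0.0621 to 0.585%). Without replicate 1 the share of Irak1 was 0.360%, and with exons of RefSeq-paired transcripts the share of Irak4 was 0.424%. The order Irak1, Irak4, Irak2, Irak3 held with all 3 lengths used to scale the genes. The exons of Irak4 share 395 bases with those of Twf1 on the opposite strand, which was at 164 ± 12 CPM. Scaled by exons of transcripts that are paired with RefSeq entries, the ratio of Irak1 to Irak4 was 1.98 ± 0.448.

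Traf6 (Entrez 22034, chromosome 2, 101678420 to 101701668), the ligase that links the IRAK step to TAK1, had 518, 417 and 468 counts. The levels were 30.0, 23.1 and 25.2 CPM, with a mean of 26.1 ± 3.57 CPM. Replicate 1 was high and replicate 2 low, as for Ikbkb. The ratio of Traf6 to Irak1 per kb was 0.377, 0.354 and 0.388, a mean of 0.373 ± 0.0170. This ratio varied by 4.56% (coefficient of variation) between libraries, while the CPM of Traf6 varied by 13.7% and that of Irak1 by 12.2%. Both genes were highest in replicate 1, as were 45.7% of all detected genes. Whether the steadier ratio is particular to this pair was not tested.

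At the TAK1 step, Map3k7 and Tab2 varied little between libraries. Map3k7 (Entrez 26409, chromosome 4, 31963492 to 32023470), which encodes TAK1, had 401, 433 and 443 counts, or 23.2, 23.9 and 23.8 CPM, and a mean of 23.7 ± 0.377 CPM. Tab2 (Entrez 68652, chromosome 10, 7905648 to 7956255), which encodes its ubiquitin-binding adaptor, had 795, 923 and 893 counts, or 46.1, 51.0 and 48.1 CPM, and a mean of 48.4 ± 2.49 CPM. Both genes were lowest in replicate 1 and highest in replicate 2. Tab2 stood above Map3k7 per kb in each library, with ratios of 2.08, 2.23 and 2.11, and of 2.61, 2.81 and 2.66 when scaled by the longest transcript. Tab1, whose product binds and activates TAK1, was at 8.47 ± 1.08 CPM per kb and overlapped Tab2 between libraries, while Tab3, a relative of Tab2, was at 1.48 ± 0.161 CPM per kb. These partner genes varied more, with coefficients of variation of 12.7% for Tab1 and 10.9% for Tab3, against 1.59% for Map3k7 and 5.14% for Tab2.

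The IKK complex joins the kinases IKKα and IKKβ, from Chuk and Ikbkb, to the regulatory subunit NEMO, from Ikbkg. IKKβ is the main IκB kinase in the response to IL-1, while IKKα is best known from the non-canonical pathway. The stretches below encode features the 2 kinases share. Each was located in both genes by the same pattern of residues, so the shared bases do not measure how similar the genes are. The first pair is from the activation loop, with the codons of the serines whose phosphorylation switches the kinases on in capitals.
Chuk activation loop: AGTctctgtacaTCTtttgtgggaaca
Ikbkb activation loop: AGTctgtgcacgTCAtttgtggggact
The second pair encodes the C-terminal stretch that binds NEMO, in capitals throughout.
Chuk NEMO-binding stretch: CTTGATTGGAGTTGGTTA
Ikbkb NEMO-binding stretch: CTAGACTGGAGCTGGTTA
Both genes lie on the minus strand. The activation loop stretches (chr19:44097454-44097480 in exon 6 of Chuk and chr8:22681675-22681701 in exon 7 of Ikbkb) were identical at 21 of 27 bases. The NEMO-binding stretches (chr19:44074520-44074537 in exon 21 and chr8:22660439-22660456 in exon 22) were identical at 15 of 18 bases, and each lies in the last exon of its transcript.

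Chuk (Entrez 12675, chromosome 19, 44073334 to 44107505) had 1476, 1586 and 1529 counts, or 85.5, 87.7 and 82.3 CPM. Its mean of 85.2 ± 2.70 CPM was the highest of the 10 genes, with no overlap with any other. Ikbkb (Entrez 16150, chromosome 8, 22659205 to 22706589) had 942, 702 and 912 counts, or 54.6, 38.8 and 49.1 CPM, and a mean of 47.5 ± 8.01 CPM. Replicate 2 was low for Ikbkb and highest for Chuk. Ikbkg (Entrez 16151, chromosome X, 74393233 to 74456792) had 1100, 1078 and 1010 counts, or 63.8, 59.6 and 54.4 CPM, and a mean of 59.2 ± 4.70 CPM. Its exons share 418 bases with those of G6pdx on the opposite strand, which was at 206 ± 14.4 CPM, so part of the reads of either gene cannot be placed with certainty.

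Ikbkb lay below Chuk in each library, and by how much depended on the length of Ikbkb. Merged over all its annotated transcripts, 7 of 14 of which retain introns, the exons of Ikbkb cover 19078 bases, against 4533 bases in transcripts paired with RefSeq entries. For the other genes the 2 lengths differed by 1.11-fold (Map3k7) to 1.77-fold (Irak4), and for Ikbkb by 4.21-fold. With merged exons the ratio of Ikbkb to Chuk per kb was 0.170, 0.118 and 0.159 in replicates 1, 2 and 3. With the RefSeq-paired exons it was 0.493, 0.342 and 0.461, and with the longest transcript 0.461, 0.320 and 0.431. The direction was the same by all 3 lengths, as it was in CPM. The mean ratio moved from 0.149 with merged exons to 0.404 with the longest transcript and 0.432 with RefSeq-paired exons. The ratio of Ikbkg to the sum of both kinase genes was 0.379 ± 0.0211 with merged exons and 0.235 ± 0.0142 with RefSeq-paired exons.

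**Figure D2:**
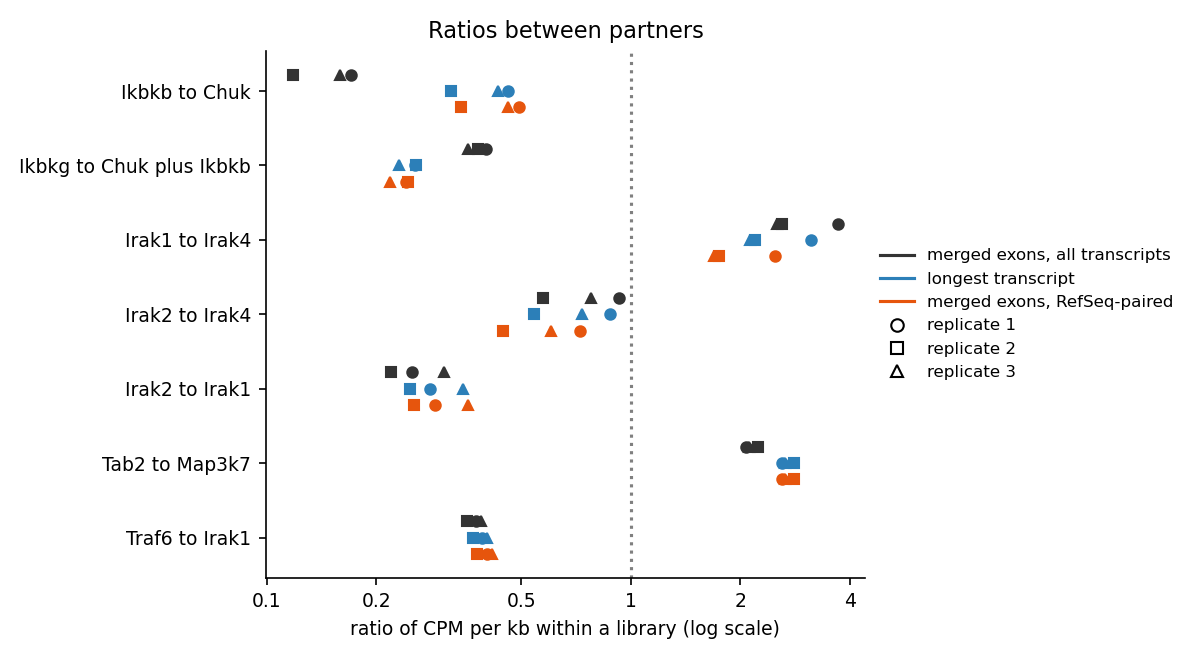
Ratio of CPM per kb between partner genes within each library (horizontal log axis), for replicates 1 (circles), 2 (squares) and 3 (triangles) and for 3 ways to measure gene length (black, merged exons of all transcripts; blue, longest transcript; orange, merged exons of RefSeq-paired transcripts). The ratio of Ikbkb to Chuk stays below 1 by each length but moves most with it, with means of 0.149, 0.404 and 0.432.

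Placed in 1 order per kb of merged exons, Chuk came first at 16.7 ± 0.532 CPM per kb. Irak1 followed at 8.87 ± 1.08, Tab2 at 7.89 ± 0.406 and Ikbkg at 7.30 ± 0.580 CPM per kb. Irak1 overlapped Tab2 between libraries, and Tab2 overlapped Ikbkg, so these neighbours did not differ beyond their spread. Then came Map3k7 at 3.69 ± 0.0588, Traf6 at 3.31 ± 0.453, Irak4 at 3.05 ± 0.291, Ikbkb at 2.49 ± 0.420 and Irak2 at 2.30 ± 0.416 CPM per kb, each overlapping the next. Irak3 was last. Of the 9 neighbouring pairs, 3 had ranges over the libraries that did not overlap, namely Chuk and Irak1, Ikbkg and Map3k7, and Irak2 and Irak3. Ikbkb also lay above Irak2 within each library, although their ranges overlapped. This count was 6 without replicate 1 and 5 without replicate 2, where each gene has 1 value less to overlap with.

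With the longest transcript or the RefSeq-paired exons, Ikbkb moved from rank 8 to rank 4, at 9.80 ± 1.65 and 10.5 ± 1.77 CPM per kb. Chuk remained first, and Irak2 and Irak3 remained in the last places. Of the 45 pairs among the 10 genes, 33 had ranges that did not overlap, in the same direction by all 3 lengths, and 8 pairs changed order with the length, 4 of them pairs with Ikbkb.

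**Figure D3:**
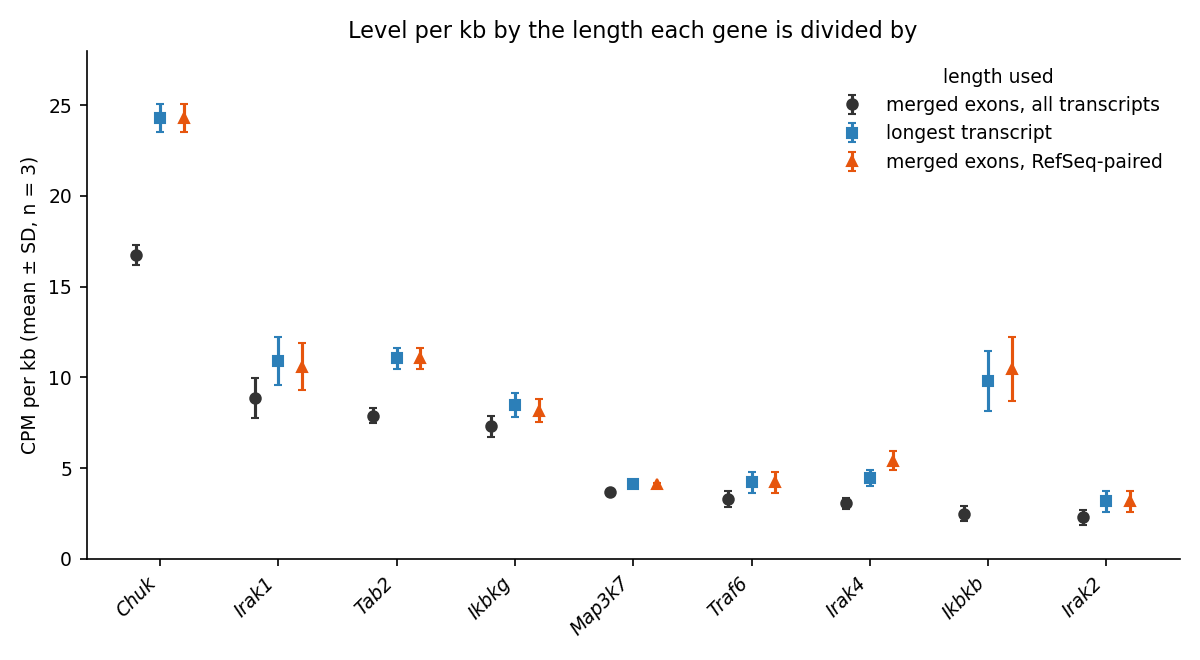
CPM per kb (mean ± SD of 3 libraries) of the 9 detected genes in their order by merged exons, for each of 3 lengths. Chuk is highest by each length, and Ikbkb moves from 2.49 to 9.80 and 10.5 CPM per kb.

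By merged exons, Chuk, Irak1, Tab2 and Ikbkg lay above the median of detected protein-coding genes and the other detected genes below it. The median of the 9 detected genes was 3.69 CPM per kb. Among 10704 detected protein-coding genes with a length, the median was 6.94 CPM per kb. The share of those genes that lay below was 70.5% for Chuk, 55.9% for Irak1, 52.9% for Tab2 and 51.2% for Ikbkg. It was 34.9% for Map3k7, 32.7% for Traf6, 30.8% for Irak4, 26.2% for Ikbkb and 24.8% for Irak2. With RefSeq-paired exons, 50.4% of 10682 genes lay below Ikbkb, 69.6% below Chuk and 44.7% below Ikbkg, so that Ikbkb came to lie above the median and Ikbkg below it. The median of the 9 genes also depended on the length. By the longest transcript it was that of Ikbkg at 8.47 CPM per kb, against 9.52 for detected protein-coding genes. By RefSeq-paired exons it was again that of Ikbkg, at 8.17 against 10.3 CPM per kb.

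The genes differed in how much they varied between libraries. The SD of log2(CPM + 0.5) was largest for Irak2 at 0.264 and Ikbkb at 0.249, followed by Traf6 at 0.190, Irak1 at 0.168, Irak4 at 0.136 and Ikbkg at 0.114. It was 0.0731 for Tab2, 0.0457 for Chuk and 0.0226 for Map3k7. Set against the SD that counting error alone would give, Ikbkb varied 5.0 times as much, Irak1 3.18, Traf6 2.84, Ikbkg 2.58 and Irak2 2.44 times. For Irak4 this was 1.56 times, for Tab2 1.49, for Chuk 1.24 and for Map3k7 0.323 times. In the 5793 detected genes within the same range of CPM the median SD was 0.117, or 1.9 times counting error. Of these genes, 93.8% lay below Irak2 in SD, 92.0% below Ikbkb and 2.59% below Map3k7. Irak2 sets the lower end of that range, with a counting SD of 0.108 against a median of 0.061. Its rank therefore does not allow for its low level. The median over the 9 detected genes was 0.136, against 0.120 for all 11224 detected genes. For the 9 genes it was 0.0641 without replicate 1, 0.107 without replicate 2 and 0.150 without replicate 3. The median of all detected genes was not recomputed that way, so these shifts cannot be called particular to the 9 genes.

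**Figure D4:**
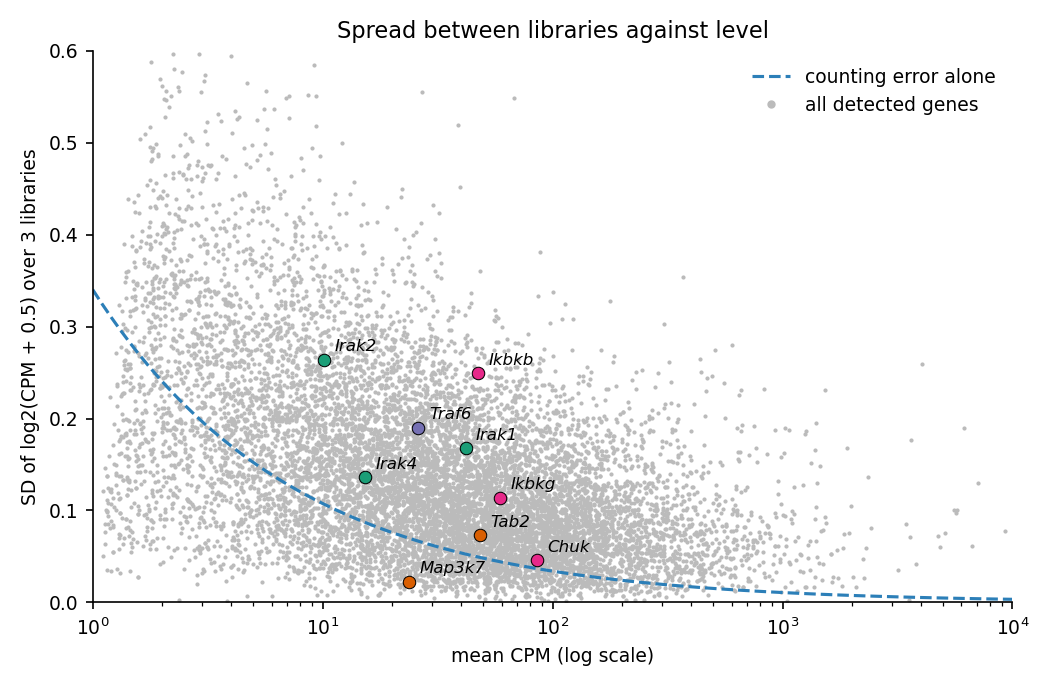
SD of log2(CPM + 0.5) over 3 libraries (vertical axis) against mean CPM (horizontal log axis) for all detected genes (grey; 39 genes above 0.6 lie outside the axis) and the 9 detected kinase and adaptor genes, coloured by step; the dashed line is the SD from counting error alone. Irak2 and Ikbkb have the largest SDs of the 9 genes, at 2.44 and 5.0 times counting error, and Map3k7 lies under the dashed line.

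Of the 9 detected genes, 4 were highest in replicate 1 (Irak1, Traf6, Ikbkb, Ikbkg), 3 in replicate 2 (Map3k7, Tab2, Chuk) and 2 in replicate 3 (Irak2, Irak4). For all detected genes the shares were 45.7%, 27.1% and 27.3%, so these counts lie near the background. Each library was the lowest for 3 of the 9 genes, where the shares of all detected genes were 30.2% in replicate 1, 41.9% in replicate 2 and 27.9% in replicate 3. Over the 3 libraries, the protein-coding genes closest to Irak2 in log2(CPM + 0.5) were Ap5z1, Samd4b and Lime1, at Euclidean distances of 0.0612, 0.0874 and 0.101. Close to Chuk were Tgoln1 and BC031181, at 0.0546 and 0.0550. With 10723 genes to choose from and 3 libraries of 1 group, such neighbours describe only a similar level.

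Around the relay, 44 of 48 other listed genes of the pathway were detected. The share detected was 51.1% for all protein-coding genes and 41.3% for all rows, which also holds beside the counts by list below. The median over the 44 genes was 7.40 CPM per kb, against 6.94 CPM per kb for all detected protein-coding genes. Upstream, 6 of 7 genes of the receptor complex were detected. The adaptor gene Myd88 was at 58.0 CPM per kb, above each of the 10 relay genes, and the receptor gene Il1r1 was at 7.86 CPM per kb. The decoy receptor gene Il1r2 had 8, 0 and 0 counts. Among partners of IRAK1 and TRAF6, Peli1, an IRAK-binding ubiquitin ligase gene, was at 4.64 CPM per kb and Peli3 and Tifa were detected, while Peli2 had 5, 0 and 1 counts and Tifab none, which allows 0.174, 0.166 and 0.161 CPM in the libraries.

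All 6 other TRAF genes were detected, from Traf7 at 30.8 to Traf1 at 1.35 CPM per kb, with Traf6 at 3.31. By RefSeq-paired exons Traf1 was at 5.10 CPM per kb, above Traf6 at 4.23, so the lower end of the family depended on the length. All 7 ubiquitin enzyme and scaffold genes were detected. Sqstm1, whose product is an autophagy receptor that binds TRAF6, was highest at 516 CPM per kb, and Ube2d2a was lowest at 4.14 CPM per kb, though it was at 19.3 CPM per kb by RefSeq-paired exons, and reads of Ube2d2a and its close relative Ube2d3 may be split by the counting. Ube2n, which encodes the conjugating enzyme that works with TRAF6, was at 16.8 CPM per kb. Of the 3 partners of TAK1, Map3k7cl, a relative of Map3k7, had 1, 0 and 0 counts. All 3 subunit genes of the linear ubiquitin ligase, which builds the chains that NEMO binds, were detected, from Rbck1 at 22.5 to Rnf31 at 3.01 CPM per kb.

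All 5 genes of the IKK-related kinases and their adaptors were detected, with Tbk1 at 37.7 CPM per kb, above Chuk, and the adaptor gene Tbkbp1 lowest at 0.773. Ikbke was at 1.76 CPM per kb, with 16.2, 15.8 and 15.7 CPM in replicates 1, 2 and 3. By RefSeq-paired exons it was at 4.88 CPM per kb, so its place beside the relay genes depended on the length. Of the other MAP3K genes, all 4 were detected, from Map3k3 at 4.35 to Map3k8 at 0.628 CPM per kb, and Map3k14, which encodes the kinase upstream of IKKα in the non-canonical pathway, was at 11.1, 4.59 and 8.18 CPM. The MAP2K genes, targets of TAK1 outside the IKK arm, were all 4 detected, with Map2k3 at 86.1 and Map2k7 at 2.63 CPM per kb. The chaperone genes for IKK were abundant, with Hsp90ab1 at 1615 CPM per kb, and the IKK regulator gene Erc1 was lowest of its list at 2.24 CPM per kb.

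**Figure D5:**
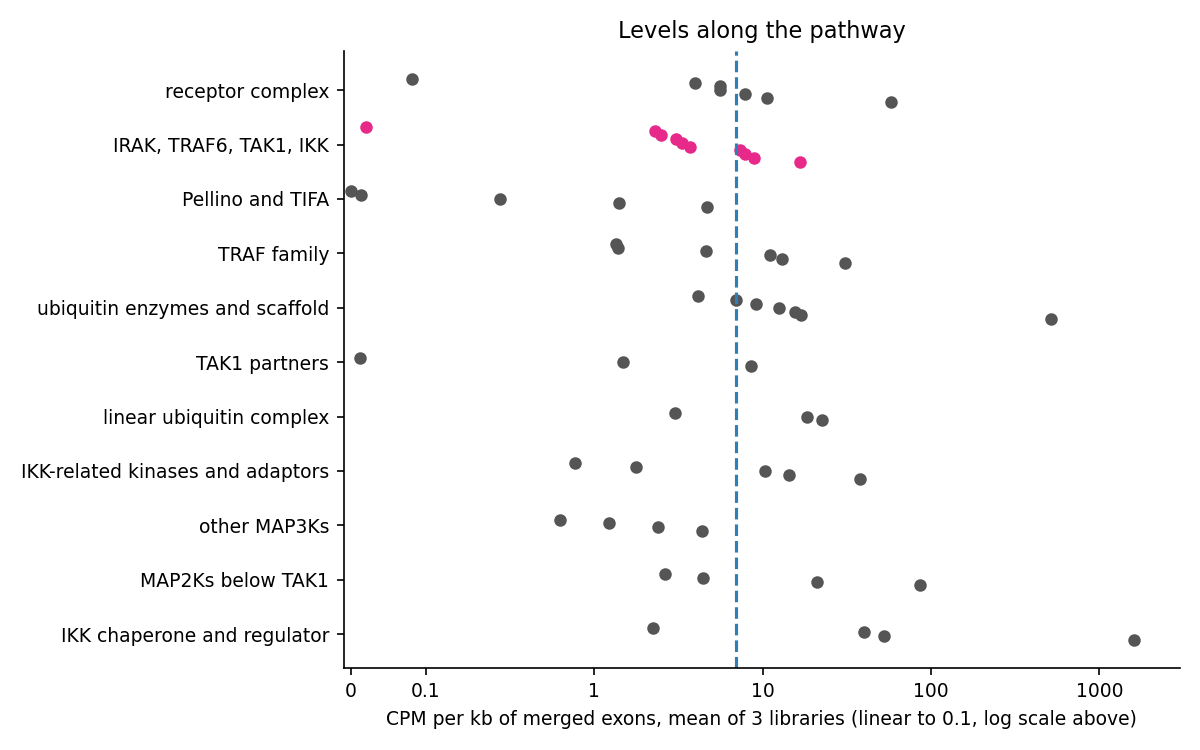
CPM per kb of merged exons (horizontal axis, linear up to 0.1 and logarithmic above; mean of 3 libraries) of each gene in the 10 relay genes (pink) and in 10 other lists of the pathway (grey); the dashed line is the median of detected protein-coding genes, 6.94. The relay genes other than Irak3 lie between 2.30 and 16.7, and genes such as Myd88, Sqstm1, Map2k3 and Hsp90ab1 lie above all of them.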

How the data were processed

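PolyA RNA of 12 labelled samples was sequenced after lysis without RNA extraction, 10 cycles of pre-amplification and tagmentation, per the labels' protocols. The deposited tables hold raw counts per Entrez gene ID. The build mm10 and the tools CASAVA, STAR and featureCounts are named, per the submitters' processing notes; their versions, the annotation and the strand setting were not given in the sources used here. Only 3 tables were distinct, those of the IL-1 group. CPM used the total counts of each library, 17254518 to 18578859; counts are reads, so intervals cover counting error only.

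Symbols and positions came from RefSeq GRCm38.p6 (25275 of 27179 IDs matched), lengths, exons and sequences from GENCODE M21 (GRCm38). A length was known for 96.1% of detected genes. Scaling factors came from edgeR 4.0.16 (R 4.3.3); Python 3.11.15, numpy 2.4.6, pandas 2.3.3 and scipy 1.17.1 did the rest. With 1 group there was no test between groups. All 10 members are named, with the 3 nearest genes of the most variable and of the highest member (1 of these is not reported here); of the other pathway lists, the highest and lowest per kb and each gene under 1 CPM. Other named genes, such as Il1r1, Tab3, Ube2n, Ikbke, Map3k14 and the named cell markers, were chosen after their values were seen. The members and lists were chosen with earlier results of these data known.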

Additional observations from a re-analysis of the deposited data

How the results depend on the processing

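No paired analysis was possible because count tables distinct from those of other samples existed for 1 group alone. Of 222 recomputed values, 209 kept within their limits and 13 moved, 8 of these with the gene length. Many of the 209 could not have moved, so their share does not measure robustness. Ratios within a library cancel TMM and RLE factors, and mean ratios without 1 replicate shift by less than their SD. The other pathway genes were also counted both as a total and by list. With the longest transcript in place of merged exons, the ratio per kb was 0.404 for Ikbkb to Chuk, 0.248 for Ikbkg to Chuk plus Ikbkb and 2.69 for Tab2 to Map3k7. With exons of RefSeq-paired transcripts, a choice made after the data had been seen, the same ratios were 0.432, 0.235 and 2.69, that of Irak1 to Irak4 was 1.98 and that of Traf6 to Irak1 was 0.399. Leaving out 1 replicate, the count of neighbours whose ranges did not overlap ranged from 3 to 6, and the genes highest in replicate 2 numbered 4 to 5 and those highest in replicate 3 numbered 4 in each case, by construction, since fewer libraries compete. The 9 detected genes remained 9 under all 7 alternatives. None of the 50 recomputed mean levels moved by over 1 SD, under TMM or RLE factors or without 1 replicate; the last says little, since dropping 1 of 3 values shifts their mean by less than their SD. Ratios with Irak3 were run on summed counts, since replicate 1 had none, and its level cannot be resolved further at this depth.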
